A study of Mus musculus with 8 samples.

Results

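Trp53, the gene that encodes the transcription factor p53, and 9 genes known as its targets were followed through mouse thymocytes, which are T cells still developing in the thymus. The set was chosen by gene name and holds Trp53, Mdm2, Cdkn1a, Ccng1, Sesn2, Eda2r, Phlda3, Trp53inp1, Zmat3 and Tnfrsf10b, and all 10 are among the 23420 genes listed in the count tables. Of them 7 passed the filter on low counts and were tested with 11409 genes in all, while Cdkn1a, Eda2r and Phlda3 had too few reads and are described by their counts. RNA of the thymus was sequenced in 8 libraries, 2 in each of 4 groups, which were BALB whole thymocytes, B6 whole thymocytes, BALB DP thymocytes and B6 DP thymocytes. All mice were wild type, the strain is known from the names of the libraries, without a substrain, and neither age nor sex is stated. DP thymocytes are double positive for CD4 and CD8, and were sorted on a FACSAria III as cells lacking CD69 with low or intermediate staining by H57, which detects T cell receptor beta. No label states that replicates were different animals, so the p-values measure the spread between these libraries. That spread may be technical, except in BALB whole thymocytes, whose 2 libraries differ in the sex-linked counts given below. No damaging treatment is named for any group, so the values are those of untreated thymocytes as far as the labels say. The DP thymocytes were stained and sorted, and any effect of this cannot be told apart from the difference between whole and DP thymocytes.

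p53 is held at a low level by Mdm2, a ubiquitin ligase that marks it for destruction and is itself a p53 target, which closes a feedback loop. DNA damage and other stresses stabilise p53, which then binds paired copies of a short consensus near its targets and switches on genes of cell cycle arrest, repair and death. Thymocytes are known for p53-dependent death after irradiation, and mice without Trp53 often develop thymic lymphoma. The level of Trp53 mRNA is only one input, since p53 is regulated largely at the protein level, which these libraries do not measure.

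The libraries held 2632083 to 5974684 counts in genes. Pairs of libraries within a group differed by a chi-square of 1.62 to 4.35 per gene in B6 whole, B6 DP and BALB whole thymocytes, and by 18.3 per gene in BALB DP thymocytes, so replicates spread most there. The library of BALB DP replicate 1 held 3.14% of its gene counts in Rn45s, a ribosomal RNA gene, against 5.11% to 8.35% in the other libraries. In BALB whole replicate 1 the X-inactivation RNA Xist had 12313 counts and the Y-linked Ddx3y had 0. BALB whole replicate 2 had 203 and 725 counts, and the libraries of the other groups had 6 to 24 and 444 to 1177. Results are therefore also given without BALB DP replicate 1 and BALB whole replicate 1, the libraries that stood apart, a choice made after seeing the data. By Xist and Ddx3y, BALB whole replicate 1 came from female tissue, while the other libraries held Y-linked RNA. The BALB whole libraries thus were not from the same animal, and sex is mixed in that group. The part of sex in any difference was not tested. In bulk RNA, fewer cells of a type and less RNA per cell cannot be told apart.

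The 10 genes spanned a wide range of abundance. Scaled for exon length and library size (RPKM), the median level over the 8 libraries was 172 for Trp53inp1, 36.9 for Mdm2, 22.6 for Ccng1 and 13.9 for Trp53 itself. It was 2.34 for Zmat3, 1.80 for Sesn2, 1.001 for Phlda3, 0.732 for Tnfrsf10b and 0.257 for Cdkn1a, and Eda2r had a median RPKM of 0. The best-known arrest target, Cdkn1a, was thus among the least abundant of the set, with 38 counts over all 8 libraries, while Trp53inp1 had 36066 counts.

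**Figure D1:**
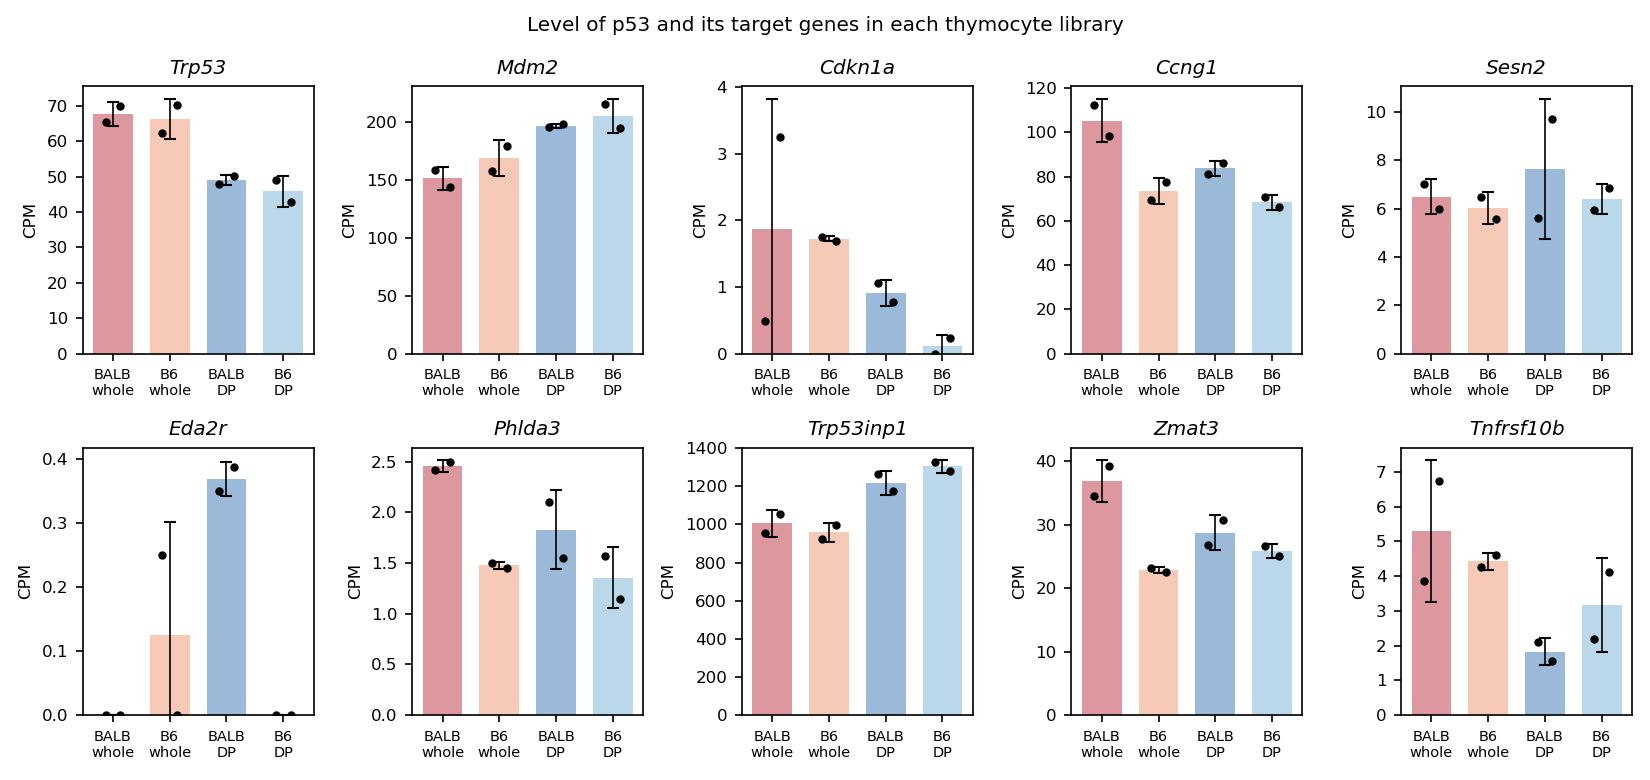
Level in CPM, counts scaled to library size, of each of the 10 genes in BALB whole, B6 whole, BALB DP and B6 DP thymocytes; points are libraries, bars are means and error bars the SD of 2 libraries, cut off at 0 for Cdkn1a and Eda2r. Trp53 stood higher and Mdm2 and Trp53inp1 lower in the whole than in the DP libraries, and Ccng1 and Zmat3 were highest in BALB whole thymocytes.

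Whole and DP thymocytes differed in Trp53 and in 2 of its target genes, and not in the same direction. Over both strains, Trp53 was higher in whole thymocytes, while Mdm2 and Trp53inp1 were lower. These made 3 of the 7 tested genes called at a Benjamini-Hochberg adjusted p under 0.05 in edgeR's quasi-likelihood test, when 20.5% of all tested genes were called in the same comparison, 12.5% higher and 8.01% lower. The median log2 fold change was 0.11 over the 7 tested genes and −0.01 over all tested genes.

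Trp53 (chr11:69580359-69591873, plus strand, GRCm38) had 65.4 and 70.2 CPM in BALB whole thymocytes and 62.2 and 70.4 CPM in B6 whole thymocytes, against 48.0 and 50.1 CPM in BALB DP thymocytes and 49.0 and 42.7 CPM in B6 DP thymocytes. All 4 whole libraries lay above all 4 DP libraries, and within each population the strains overlapped. Trp53 was higher in whole thymocytes by 1.417-fold over both strains, a log2 fold change of 0.50 ± 0.10 (SE) with an adjusted p of 0.00283 in edgeR with Benjamini-Hochberg adjustment. It rose by 0.47 ± 0.14 on the log2 scale in BALB (adjusted p = 0.0343, edgeR) and by 0.54 ± 0.14 in B6 (adjusted p = 0.0282, edgeR). The 2 strains share no library in this comparison, and the interaction of strain and population did not pass, at −0.07 ± 0.19 (adjusted p = 0.935, edgeR). The BALB over B6 log2 fold change of Trp53 was 0.03 ± 0.13 in whole and 0.10 ± 0.14 in DP thymocytes, neither of which passed the test.

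Mdm2 (chr10:117688875-117710758, minus strand), the ubiquitin ligase of the feedback loop, had 159 and 145 CPM in BALB whole thymocytes and 158 and 180 CPM in B6 whole thymocytes, against 196 and 198 CPM in BALB DP thymocytes and 216 and 196 CPM in B6 DP thymocytes. All DP libraries were above all whole libraries, in the reverse order to Trp53. Over both strains the log2 fold change of whole over DP thymocytes was −0.33 ± 0.08 (adjusted p = 0.0117, edgeR). In BALB it was −0.38 ± 0.11 and passed (adjusted p = 0.0368, edgeR), and in B6 it was −0.28 ± 0.11 and did not (adjusted p = 0.137, edgeR), although the interaction of −0.09 ± 0.16 did not pass either. No difference between the strains passed for Mdm2, whose BALB over B6 log2 fold change was −0.16 ± 0.11 in whole and −0.06 ± 0.11 in DP thymocytes.

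Trp53inp1 (chr4:11156431-11174379, plus strand) encodes a p53-inducible nuclear protein that promotes apoptosis and autophagy. It was the most abundant of the set, with 957 and 1056 CPM in BALB whole thymocytes and 921 and 995 CPM in B6 whole thymocytes, against 1263 and 1174 CPM in BALB DP thymocytes and 1327 and 1281 CPM in B6 DP thymocytes. Like Mdm2, it was lower in every whole library than in any DP library. Over both strains the log2 fold change of whole over DP thymocytes was −0.36 ± 0.07 (adjusted p = 0.00313, edgeR). In B6 Trp53inp1 fell by 0.45 ± 0.09 on the log2 scale (adjusted p = 0.00929, edgeR), and in BALB the value of −0.28 ± 0.09 missed the threshold (adjusted p = 0.0570, edgeR). With no filter on low counts the BALB value passed (adjusted p = 0.0339, edgeR). The interaction of 0.17 ± 0.13 did not pass (adjusted p = 0.656, edgeR), so the strains are not shown to differ in it.

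Both target genes were also set against Trp53 within each library. Counts of Mdm2 per count of Trp53 were 2.43 and 2.06 in BALB whole and 2.54 and 2.56 in B6 whole libraries, against 4.08 and 3.96 in BALB DP and 4.42 and 4.58 in B6 DP libraries. Counts of Trp53inp1 per count of Trp53 were 14.6 and 15.1 in BALB whole and 14.8 and 14.1 in B6 whole libraries, against 26.3 and 23.4 in BALB DP and 27.1 and 30.0 in B6 DP libraries. The ratios do not depend on how libraries are scaled to each other. They are a description with no test, since Trp53 and its 2 targets were paired after being seen to move in opposite directions, which fixes that the ratios separate the populations.

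**Figure D2:**
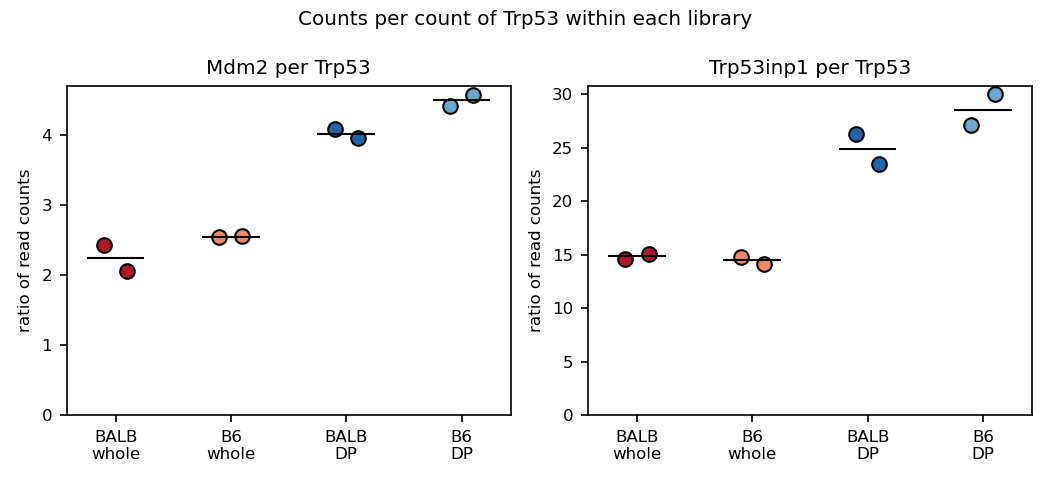
Counts of Mdm2 (left) and of Trp53inp1 (right) per count of Trp53 in each library of BALB whole, B6 whole, BALB DP and B6 DP thymocytes; points are libraries and lines are group means. The Mdm2 ratio was 2.06 to 2.56 in whole and 3.96 to 4.58 in DP libraries.

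The calls of Trp53, Mdm2 and Trp53inp1 over both strains held in all 14 alternatives, among them leaving out each of the 8 libraries in turn, with the highest adjusted p at 0.0161 for Trp53, 0.0169 for Trp53inp1 and 0.0494 for Mdm2. Within a single strain they were less stable. The Trp53 call in B6 was lost without B6 DP replicate 1 (adjusted p = 0.0890), B6 DP replicate 2 (0.225), B6 whole replicate 1 (0.101) or B6 whole replicate 2 (0.253), all from edgeR. The Trp53inp1 call in B6 was lost without the same 4 libraries, with adjusted p-values from edgeR of 0.0883, 0.0691, 0.139 and 0.0543 in that order. In BALB the call of Trp53 held in 1 and that of Mdm2 in 2 of the 8 fits that each left out 1 library, with adjusted p up to 0.168 and 0.190 (edgeR), although the log2 fold change stayed between 0.42 and 0.51 for Trp53 and between −0.45 and −0.32 for Mdm2. Without both libraries that stood apart, Mdm2 in BALB still passed (adjusted p = 0.00815, edgeR) and Trp53 in BALB did not (adjusted p = 0.0688, edgeR).

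The 2 populations also differed in the cells they hold, as their markers show. Summed CPM of 9 markers of mature thymocytes was 743 to 784 in BALB whole and 709 to 792 in B6 whole libraries, against 198 to 238 in BALB DP and 261 to 285 in B6 DP libraries, where S1pr1 was at 0 in B6 DP. Summed CPM of 6 B cell markers was at least 16.0 in BALB whole and 21.8 to 26.0 in B6 whole libraries, against 3.11 to 4.73 in BALB DP, with Pax5 at 0, and at least 10.4 in B6 DP libraries. The 7 markers of double negative thymocytes, the stage before DP, summed to 519 to 553 CPM in BALB whole and 605 to 664 in B6 whole, against 383 to 472 in BALB DP and 482 to 494 in B6 DP libraries. Summed CPM of 11 myeloid and dendritic markers was 335 to 339 in BALB whole and 319 to 342 in B6 whole libraries, against 49.3 to 54.0 in BALB DP, with Emr1 and Wdfy4 at 0, and 47.7 to 61.7 in B6 DP, with Itgax at 0. The 12 markers of DP thymocytes, such as Rag1, Rag2 and Cd8a, all had counts in every group, and summed to 9620 to 10200 CPM in BALB whole, 13000 to 13600 in B6 whole, 13900 to 14000 in BALB DP and 21000 to 21900 in B6 DP libraries, so within each strain the sorted libraries were higher in DP markers and lower in mature ones. The part of these cells in the differences of Trp53, Mdm2 and Trp53inp1 was not tested.

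Between the strains, Ccng1 and Zmat3 were higher in BALB than in B6 whole thymocytes, and were the 2 of 7 tested genes that passed in that comparison, in which 4.59% of all tested genes were called in edgeR, 1.98% higher and 2.61% lower. In DP thymocytes 0 of the 7 passed in edgeR or with DESeq2, when 13% of all tested genes did in edgeR, 6.85% higher and 6.14% lower, and 1 of the 7, Ccng1, had an unadjusted p under 0.05. The median log2 fold change of BALB over B6 over the 7 genes was 0.11 in whole and 0.10 in DP thymocytes, against 0.02 and 0.00 over all tested genes.

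Ccng1 (chr11:40748552-40755311, minus strand) encodes cyclin G1, a p53 target that recruits a phosphatase to Mdm2. It had 112 and 98.4 CPM in BALB whole thymocytes, against 69.5 and 77.6 CPM in B6 whole thymocytes, and 81.1 and 86.2 CPM in BALB DP thymocytes, against 70.6 and 66.0 CPM in B6 DP thymocytes. In each population both BALB libraries were above both B6 libraries. Ccng1 was 1.43-fold higher in BALB whole thymocytes, a log2 fold change of 0.52 ± 0.12 (adjusted p = 0.0341, edgeR), and its value of 0.29 ± 0.13 in DP thymocytes did not pass (adjusted p = 0.155, edgeR). Over both populations the log2 fold change was 0.41 ± 0.09 (adjusted p = 0.0156, edgeR), and Ccng1 was the 1 of 7 genes called in that comparison, in which 10.8% of all tested genes were called, 4.84% higher and 6% lower. The interaction of 0.23 ± 0.18 did not pass (adjusted p = 0.663, edgeR), so the 2 populations are not shown to differ in it.

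Zmat3 (chr3:32334792-32366014, minus strand), also known as Wig1, encodes a zinc finger protein that binds RNA. It had 34.5 and 39.2 CPM in BALB whole thymocytes, against 23.2 and 22.5 CPM in B6 whole thymocytes, and 26.8 and 30.7 CPM in BALB DP thymocytes, against 26.7 and 25.1 CPM in B6 DP thymocytes. The gap between strains was clear in whole thymocytes and nearly closed in DP thymocytes, where the lower BALB library was 26.8 and the higher B6 library 26.7 CPM. In whole thymocytes Zmat3 was 1.61-fold higher in BALB, a log2 fold change of 0.69 ± 0.16 (adjusted p = 0.0330, edgeR), and in DP thymocytes the value was 0.14 ± 0.17 (adjusted p = 0.635, edgeR). The interaction was 0.55 ± 0.23 and did not pass after adjustment (unadjusted p = 0.0373, adjusted p = 0.429, edgeR). It was the 1 of 7 genes with an unadjusted p under 0.05 in the interaction, in which 0 of 7 were called by edgeR or by DESeq2 and 0.123% of all tested genes were called in edgeR, 0.105% higher and 0.0175% lower.

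The 2 strain calls in whole thymocytes did not hold up when most of the libraries were left out singly. In edgeR both were lost without either B6 DP library, either B6 whole library or either BALB whole library, and held only without either BALB DP library, with an adjusted p up to 0.371 for Ccng1 and 0.290 for Zmat3. The direction held throughout, with log2 fold changes of 0.42 to 0.61 for Ccng1 and 0.59 to 0.78 for Zmat3. Over both populations the call of Ccng1 was lost without B6 DP replicate 2 (adjusted p = 0.0539), B6 whole replicate 1 (0.0747) or BALB whole replicate 1 (0.0502), and Zmat3, at an adjusted p of 0.0799 with all libraries, passed without BALB DP replicate 1 (0.0169), all in edgeR. Without both libraries that stood apart, Ccng1 (adjusted p = 0.0340) and Zmat3 (adjusted p = 0.00834) passed in whole thymocytes in edgeR.

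Whole thymocytes of the 2 strains differed in markers of the thymic epithelium as well. Summed CPM of its 9 markers was 95.2 to 107 in BALB whole and 34.5 to 46.0 in B6 whole libraries, and 9.32 to 10.5 in BALB DP and 9.10 to 10.5 in B6 DP libraries, where Krt14 and Foxn1 were at 0 in both groups. Markers of mature thymocytes and of myeloid and dendritic cells were close between the strains in whole thymocytes, as given above, while those of DP thymocytes were lower in BALB than in B6 libraries of both populations. The part of these cells in the differences of Ccng1 and Zmat3 was not tested.

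**Figure D3:**
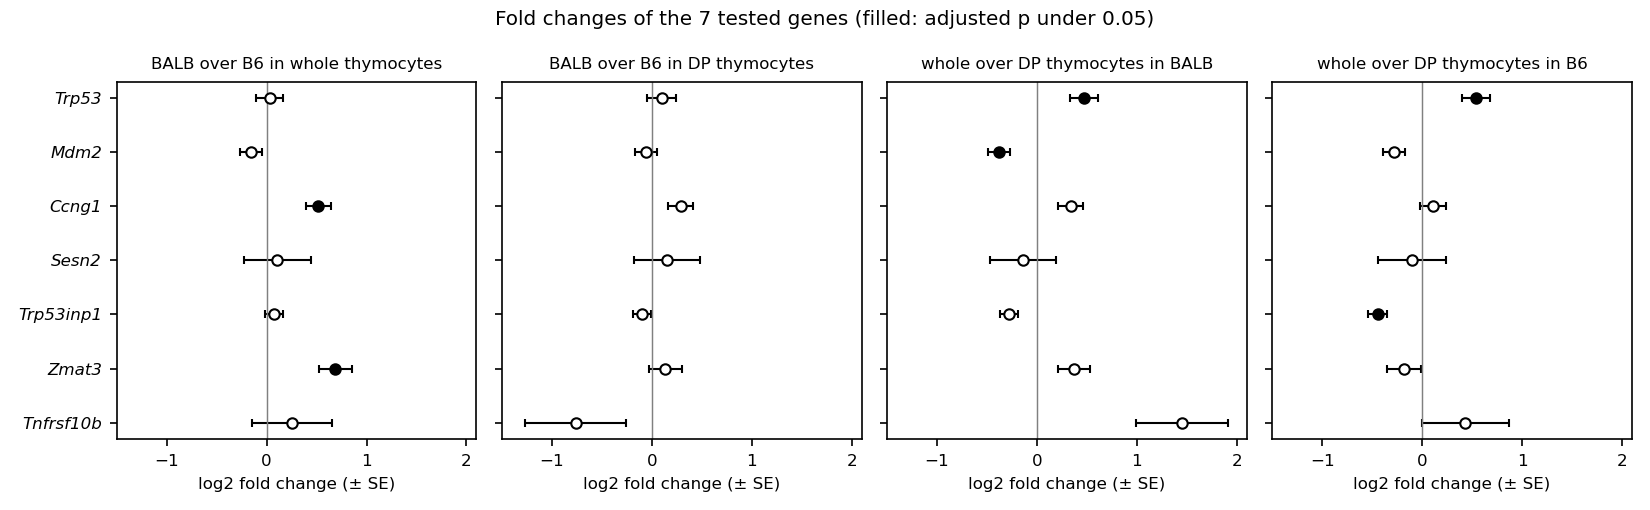
Log2 fold change of the 7 tested genes in each of the 4 simple comparisons, BALB over B6 in whole and in DP thymocytes and whole over DP thymocytes in BALB and in B6; bars are SE from edgeR and filled points have an adjusted p under 0.05. Ccng1 and Zmat3 are filled in the first panel, none in the second, Trp53 and Mdm2 in the third, and Trp53 and Trp53inp1 in the fourth.

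Within each strain, 2 of the 7 genes passed between the populations. They were Trp53 and Mdm2 in BALB, where 17.2% of all tested genes were called in edgeR (10.6% higher and 6.59% lower), and Trp53 and Trp53inp1 in B6, where 10.2% were (6.89% higher and 3.27% lower). The strain and the population comparisons use the same libraries in other pairings, so their values are given side by side and not as support for each other. In BALB, Ccng1 had a log2 fold change of whole over DP thymocytes of 0.34 ± 0.12 (adjusted p = 0.0849, edgeR) and Zmat3 of 0.37 ± 0.16 (adjusted p = 0.137, edgeR), and in B6 the values were 0.11 ± 0.13 for Ccng1 and −0.18 ± 0.17 for Zmat3.

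Cdkn1a (chr17:29090976-29100727, plus strand) encodes p21, the inhibitor of cyclin-dependent kinases through which p53 arrests the cell cycle. It was near the limit of detection in these thymocytes, with 2 and 13 counts in BALB whole libraries, 7 and 7 in B6 whole, 6 and 2 in BALB DP, and 0 and 1 in B6 DP libraries. In scaled units this was 0.483 and 3.25 CPM in BALB whole and 1.75 and 1.69 CPM in B6 whole thymocytes, against 1.05 and 0.776 CPM in BALB DP and 0 and 0.229 CPM in B6 DP thymocytes. B6 DP libraries were the lowest, and the BALB whole libraries disagreed with each other, replicate 1 being the one that stood apart. With counts pooled over the 2 libraries of a group, whole over DP thymocytes gave a ratio of 1.91 (exact 95% interval 0.759 to 5.19, 15 against 8 counts) in BALB and of 13.01 (1.98 to 550.3, 14 against 1 count) in B6. BALB over B6 gave 1.07 (0.481 to 2.39) in whole thymocytes and 7.30 (0.979 to 324) in DP thymocytes. These intervals cover counting error only and not the spread between libraries. With no filter on low counts, edgeR gave Cdkn1a a log2 fold change of 3.44 for whole over DP thymocytes in B6 (adjusted p = 0.0401), and it passed there without both libraries that stood apart (3.42, adjusted p = 0.0310, edgeR). It passed in none of the 7 fits without 1 library that kept the gene, with log2 fold changes of 2.75 to 5.80 and edgeR adjusted p of 0.0667 to 0.370. Over both strains it did not pass with all libraries and no filter (1.68, adjusted p = 0.0723, edgeR). Its log2 fold change there was 1.38 to 2.38 in the 7 fits without 1 library, and 2.70 without both libraries that stood apart. Of these fits it passed without BALB whole replicate 1 (2.21) and without both libraries that stood apart. Each of these left a group with 1 library. Without BALB whole replicate 2, the library with 13 counts, the filter left Cdkn1a out. All filtered fits of Cdkn1a thus depend on that library and are no independent support. Exons of the predicted gene AC167363.2 on the other strand overlap 7.68% of Cdkn1a's exon bases, and the kit does not mark strand, so reads there cannot be assigned to one or the other.

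The promoters of Cdkn1a and Ccng1 carry the closest matches to the p53 consensus among the set, and are shown because one belongs to the target with almost no reads and the other to the target that differed between strains. RefSeq windows of 250 bases before to 50 after a transcript start (GRCm38.p6) were found for 7 of the 10 genes, 8 windows in all, those without one being Trp53inp1, Zmat3 and Tnfrsf10b. The 20-base p53 consensus, a pair of decamers with no spacer, is its own reverse complement, so 1 strand covers both. With at most 1 mismatch, a limit chosen after the matches were seen, it was found in 2 of the 8 windows and in 29 of 32851 windows of all genes (0.0883%). The 250 bases before the start are printed 5′ to 3′ on the gene's strand, with the match in capitals, for Cdkn1a at chr17:29090729-29090978 (plus strand) and for Ccng1 at chr11:40755287-40755536 (minus strand).
Cdkn1a: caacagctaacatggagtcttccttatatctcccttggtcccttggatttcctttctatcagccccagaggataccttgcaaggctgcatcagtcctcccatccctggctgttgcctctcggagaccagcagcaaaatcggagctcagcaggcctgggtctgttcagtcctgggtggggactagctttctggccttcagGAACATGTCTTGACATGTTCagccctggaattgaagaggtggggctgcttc
Ccng1: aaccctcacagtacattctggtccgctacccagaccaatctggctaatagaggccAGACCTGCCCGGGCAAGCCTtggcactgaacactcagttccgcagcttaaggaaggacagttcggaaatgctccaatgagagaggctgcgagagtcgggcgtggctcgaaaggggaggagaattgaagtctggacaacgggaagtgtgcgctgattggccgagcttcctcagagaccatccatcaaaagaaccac
The Cdkn1a match, at chr17:29090928-29090947, lies at −51 to −32 from the transcript start of window 1 and fits 19 of 20 positions. Cdkn1a also had a window 2, around another transcript start (chr17:29093519-29093818), where the closest stretch fitted 15 of 20 positions. The Ccng1 match, at chr11:40755462-40755481, lies at −195 to −176 and also fits 19 of 20. The closest stretch fitted 17 of 20 positions in the Trp53 window, 15 in those of Mdm2, Sesn2 and Phlda3, and 14 in that of Eda2r. The 6-base motif ACATGT reads the same on both strands and occurs on each side of the Cdkn1a match's centre. It was present in window 1 of Cdkn1a, in the Phlda3 window and in 1735 of all windows (5.28%). A match describes letters in these windows and was not measured as a site bound by p53.

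The other 4 members were low. Sesn2 and Tnfrsf10b were tested with all libraries, and neither passed between groups there. Sesn2 (chr4:132492032-132510501, minus strand) encodes sestrin 2, a stress protein that restrains mTORC1. It had 7.004 and 5.99 CPM in BALB whole and 6.50 and 5.56 CPM in B6 whole thymocytes, and 5.61 and 9.71 CPM in BALB DP and 5.96 and 6.86 CPM in B6 DP thymocytes. All groups overlapped, the highest value being that of BALB DP replicate 2, and its log2 fold changes lay between −0.14 and 0.15 in the 4 simple comparisons, each smaller than its SE.

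Tnfrsf10b (chr14:69767472-69784411, plus strand) encodes the mouse death receptor for TRAIL. It had 3.86 and 6.74 CPM in BALB whole and 4.25 and 4.60 CPM in B6 whole thymocytes, against 2.102 and 1.55 CPM in BALB DP and 2.197 and 4.11 CPM in B6 DP thymocytes. The whole libraries were higher in BALB and, by a small margin, in B6. The log2 fold change of whole over DP thymocytes was 1.45 ± 0.46 in BALB (adjusted p = 0.0512, edgeR) and 0.43 ± 0.44 in B6 (adjusted p = 0.607, edgeR). In BALB it passed without BALB whole replicate 1 (1.79, adjusted p = 0.0486, edgeR) and with no filter on low counts (1.46, adjusted p = 0.0146, edgeR). Over both strains the log2 fold change of Tnfrsf10b was 0.91 (adjusted p = 0.0788, edgeR), and it passed with no filter (adjusted p = 0.0443, edgeR) and without B6 DP replicate 2 (adjusted p = 0.0292, edgeR).

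Phlda3 (chr1:135766119-135769136, plus strand) encodes a small protein that competes with AKT for membrane lipids. It had 10 and 10 counts in BALB whole and 6 and 6 in B6 whole libraries, and 12 and 4 in BALB DP and 5 and 5 in B6 DP libraries. Pooled ratios were between 1.12 and 1.66 in the 4 simple comparisons, and every exact 95% interval included 1, among them 0.442 to 2.88 for whole over DP thymocytes in B6 and 0.775 to 3.73 for BALB over B6 in whole thymocytes. Eda2r (chrX:97333840-97377216, minus strand), the receptor for ectodysplasin A2, had 4 counts in all, 0 and 0 in BALB whole, 1 and 0 in B6 whole, 2 and 1 in BALB DP and 0 and 0 in B6 DP libraries, so no difference was detectable at this depth.

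Regulators of p53 were read from a list of 22 genes, of which 20 were tested. Over both strains 4 (20%) were higher and 5 (25%) lower in whole than in DP thymocytes in edgeR, against 12.5% higher and 8.01% lower of all tested genes, with a median log2 fold change of −0.02 against −0.01 over all tested genes. Those higher included Trp63, a p53 relative of epithelial cells, Hipk2, a kinase that phosphorylates p53 (log2 fold change 0.50 ± 0.13, adjusted p = 0.0183), and Atm, the kinase that signals DNA breaks (0.25 ± 0.08, adjusted p = 0.0478). Those lower included Usp7, a deubiquitinase of Mdm2 and p53 (−0.39 ± 0.06, adjusted p = 0.00111), Sirt1, a deacetylase of p53 (−0.45 ± 0.10, adjusted p = 0.00894), and Crebbp, an acetyltransferase and coactivator (−0.31 ± 0.07, adjusted p = 0.0109), all in edgeR. Usp7, Sirt1 and Crebbp passed in all 14 alternatives, while Hipk2 passed in 11 and Atm in 4 of the 14. Trp63 had 17 and 13 counts in BALB whole, 4 and 5 in B6 whole and 0 in every DP library, so with the DP group set at a floor of 3 counts whole over DP thymocytes was at least 10.2-fold in BALB and at least 2.79-fold in B6. The floor leaves out the counting error of the whole libraries, and the exact 95% counting interval, which includes it, starts lower, at 7.77-fold in BALB and 1.83-fold in B6. It moved with the markers of thymic epithelium given above, and their part in it was not tested. Between the strains 0 of the 20 regulators passed in whole or in DP thymocytes, in edgeR or in DESeq2, with 1 and 3 at an unadjusted p under 0.05, while edgeR called 4.59% and 13% of all tested genes.

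Usp7 is the regulator that passed in both strains, with 673 and 730 CPM in BALB whole against 919 and 966 CPM in BALB DP thymocytes, and 693 and 699 CPM in B6 whole against 870 and 896 CPM in B6 DP thymocytes. The populations did not overlap in either strain, and the log2 fold change of whole over DP thymocytes was −0.43 ± 0.09 in BALB (adjusted p = 0.00613, edgeR) and −0.34 ± 0.09 in B6 (adjusted p = 0.0276, edgeR). It had the same direction as Mdm2 and Trp53inp1. Crebbp was lower in B6 whole than in B6 DP thymocytes (−0.43 ± 0.09, adjusted p = 0.0102, edgeR), as was its relative Ep300 (−0.40 ± 0.09, adjusted p = 0.0202, edgeR). In BALB Sirt1 was lower (−0.53 ± 0.14, adjusted p = 0.0255, edgeR) and Trp53bp1, an adaptor at DNA breaks, higher (0.47 ± 0.12, adjusted p = 0.0201, edgeR) in whole thymocytes. The B6 calls of Usp7, Crebbp and Ep300 were lost without any 1 of the 4 B6 libraries, with edgeR adjusted p up to 0.212, 0.115 and 0.210. The BALB call of Usp7 was lost without BALB whole replicate 1 (adjusted p = 0.0585, edgeR), that of Trp53bp1 without BALB DP replicate 1 or either BALB whole library (up to 0.124), and that of Sirt1 without BALB DP replicate 1, BALB whole replicate 2 or either B6 whole library (up to 0.179).

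Other targets of p53 in arrest and feedback, 11 tested of 13, moved in both directions. Between whole and DP thymocytes over both strains 2 rose and 4 fell in edgeR (18.2% and 36.4%, against 12.5% and 8.01% of all tested genes), with a median log2 fold change of −0.33 over the list. Those that rose were Pvt1, a long noncoding RNA next to Myc (3.002 ± 0.40, adjusted p = 0.000260), and Plk3, a stress-responsive kinase (2.13 ± 0.29, adjusted p = 0.000332). Pvt1 had 10.1 and 6.99 CPM in BALB whole and 3.25 and 5.56 CPM in B6 whole thymocytes, against 1.58 and 0.388 CPM in BALB DP and 0.314 and 0.457 CPM in B6 DP thymocytes, and its pooled ratio of whole over DP thymocytes in B6 was 11.2 (exact 95% counting interval 3.52 to 56.6, 36 against 3 counts). Plk3 had 9.90 and 7.74 CPM in BALB whole and 5.50 and 5.32 CPM in B6 whole thymocytes, against 2.45 and 1.16 CPM in BALB DP and 1.57 and 0.914 CPM in B6 DP thymocytes. Both were above all DP libraries in every whole library. Those that fell included E2f7, an atypical E2F repressor (−0.71 ± 0.12, adjusted p = 0.00139), Ccng2, the cyclin related to Ccng1 (−0.33 ± 0.08, adjusted p = 0.0121), and Gtse1, which carries p53 out of the nucleus (−0.41 ± 0.10, adjusted p = 0.0167), all in edgeR. Ccng2 was lost without B6 whole replicate 1 (adjusted p = 0.0537, edgeR), and Gtse1 without B6 DP replicate 2, B6 whole replicate 1 or BALB whole replicate 2 (up to 0.0516, edgeR).

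Between the strains, E2f7 was the gene of this list that rose in DP thymocytes, with 106 and 97.1 CPM in BALB DP against 61.8 and 47.5 CPM in B6 DP thymocytes (log2 fold change 0.91 ± 0.15, adjusted p = 0.00234, edgeR). It passed in all 15 alternatives. Ccng2 rose in whole thymocytes, with 173 and 168 CPM in BALB whole against 113 and 131 CPM in B6 whole thymocytes (0.48 ± 0.11, adjusted p = 0.0277, edgeR), and like Ccng1 it held there only without either BALB DP library. Over both populations Ccng2 passed with a log2 fold change of 0.40 ± 0.08 (adjusted p = 0.00701, edgeR) and in all 14 alternatives. Both cyclin G genes were thus higher in BALB, while over both strains Ccng2 was lower in whole than in DP thymocytes and Ccng1 had a value of 0.22 ± 0.09 that did not pass (adjusted p = 0.115, edgeR).

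Of 12 tested targets in apoptosis, 1 was higher and 3 were lower in whole than in DP thymocytes over both strains in edgeR (8.33% and 25%, against 12.5% and 8.01% of all tested genes), with a median log2 fold change of −0.07. Aen, a nuclease that degrades DNA in dying cells, was higher (0.57 ± 0.15, adjusted p = 0.0174). Dapk1, a death-associated kinase (−0.46 ± 0.09, adjusted p = 0.00339), Trp53i11 (−0.45 ± 0.09, adjusted p = 0.00360) and the death receptor Fas (−0.48 ± 0.14, adjusted p = 0.0318) were lower, and Dapk1 and Trp53i11 passed in all 8 fits without 1 library, Aen in 6 and Fas in 2. Fas had 109 and 64.4 CPM in the 2 BALB DP libraries, the higher being the one that stood apart. Dapk1 was also lower in BALB DP than in B6 DP thymocytes (−0.46 ± 0.11, adjusted p = 0.0202, edgeR), a call lost without either B6 DP library (up to 0.149). Of the list, 0 of 12 passed between strains in whole thymocytes in edgeR or DESeq2, with 2 at an unadjusted p under 0.05, where edgeR called 4.59% of all tested genes. Bax, the classical p53 target at the mitochondrion, had 20.3 and 20.2 CPM in BALB whole against 15.2 and 14.8 CPM in B6 whole thymocytes, and 18.0 and 19.4 CPM in BALB DP against 13.5 and 12.1 CPM in B6 DP thymocytes. The strains did not overlap in either population, and over both the log2 fold change was 0.49 ± 0.13 (adjusted p = 0.0336, edgeR), which passed in 1 of the 8 fits without 1 library (up to 0.131).

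All 9 targets in DNA repair and nucleotide supply were tested. None passed between whole and DP thymocytes in either strain or over both in edgeR or DESeq2, with 2 at an unadjusted p under 0.05 in BALB, 0 in B6 and 2 over both, while edgeR called 17.2%, 10.2% and 20.5% of all tested genes. Over both strains the median log2 fold change was −0.06. Ddb2, the damage sensor of nucleotide excision repair, was lower in BALB, with 15.1 and 14.0 CPM in BALB DP against 27.9 and 32.0 CPM in B6 DP thymocytes (−1.04 ± 0.23, adjusted p = 0.0112, edgeR), a call lost without B6 DP replicate 2 (adjusted p = 0.115, edgeR). In whole thymocytes it had 21.01 and 12.98 CPM in BALB whole against 24.2 and 25.6 CPM in B6 whole libraries. Over both populations Ddb2 (−0.79 ± 0.17, adjusted p = 0.0114) and Fancc, a Fanconi anaemia gene (−0.57 ± 0.12, adjusted p = 0.00918), were lower in BALB in edgeR and in all 8 fits without 1 library. Of the arrest list, Gtse1 (0.37 ± 0.10, adjusted p = 0.0427) was also higher and Sfn (−0.64 ± 0.17, adjusted p = 0.0295) lower in BALB over both populations in edgeR. Gtse1 passed in 2 and Sfn in 8 of the 14 alternatives. Pcna was higher in BALB DP than in B6 DP thymocytes (0.51 ± 0.15, adjusted p = 0.0499, edgeR), and passed in 6 of the 15 alternatives. So within the lists given so far, calls between the strains went both ways. Higher in BALB were Ccng1, Zmat3, Ccng2, E2f7, Gtse1, Bax and Pcna, and lower in BALB were Ddb2, Fancc, Dapk1 and Sfn. The calls came from different comparisons, in whole, in DP or over both populations, and differed in stability.

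Of 10 tested targets in metabolism and redox, 4 were higher and 1 was lower in whole than in DP thymocytes over both strains in edgeR (40% and 10%, against 12.5% and 8.01% of all tested genes), with a median log2 fold change of 0.26. Ephx1, an epoxide hydrolase, had the smallest p. It had 29.5 and 36.2 CPM in BALB whole and 23.0 and 18.4 CPM in B6 whole thymocytes, against 5.61 and 6.99 CPM in BALB DP and 2.83 and 2.97 CPM in B6 DP thymocytes. The log2 fold change of whole over DP thymocytes was 2.42 ± 0.23 in BALB (adjusted p = 4.13e-05, edgeR) and 2.82 ± 0.28 in B6 (adjusted p = 8.91e-05, edgeR). Tigar (1.29 ± 0.37, adjusted p = 0.0269) and Gpx1 (0.38 ± 0.12, adjusted p = 0.0452) were also higher in whole thymocytes over both strains in edgeR. These calls were less stable, as Tigar passed in 9 of 13 and Gpx1 in 6 of 14 alternatives. Sesn1, the sestrin related to Sesn2, was lower in whole thymocytes, with 88.6 and 81.6 CPM in BALB whole and 81.2 and 85.9 CPM in B6 whole against 111 and 112 CPM in BALB DP and 114 and 116 CPM in B6 DP thymocytes. Over both strains its log2 fold change was −0.43 ± 0.08 (adjusted p = 0.00229, edgeR), and it passed in all 8 fits without 1 library. Sesn1 thus had the direction of Mdm2 and Trp53inp1, while the groups of Sesn2 overlapped. Between the strains 2 of the 10 were higher in BALB DP thymocytes (20%, against 6.85% of all tested genes). They were Slc19a2 (1.57 ± 0.38, adjusted p = 0.0200), with 6 and 19 counts in B6 DP, and Sat1 (0.93 ± 0.24, adjusted p = 0.0272). Over both populations Ephx1 (0.77 ± 0.17, adjusted p = 0.0134) and Sat1 (0.67 ± 0.18, adjusted p = 0.0348) were higher (20%, against 4.84%), all in edgeR. In DP thymocytes Slc19a2 passed in 10 of 14 and Sat1 in 10 of 15 alternatives. Over both populations Ephx1 passed in 12 and Sat1 in 7 of the 14 alternatives. In whole thymocytes 0 passed in edgeR, against 4.59% called.

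Genes that p53 lowers through p21 and the DREAM complex, 14 genes of mitosis and the cell cycle, separated one group from the rest. Their summed level was 5653 and 5405 CPM in BALB whole and 5044 and 5415 CPM in B6 whole libraries, against 9399 and 7778 CPM in BALB DP and 5854 and 5450 CPM in B6 DP libraries. Both BALB DP libraries were above all others. In edgeR 13 of the 14 were higher in BALB DP than in B6 DP thymocytes, 92.9% of the list against 6.85% of all tested genes, with a median log2 fold change of 0.67, and 11 of 14 were lower in whole thymocytes of BALB against its DP thymocytes, 78.6% against 6.59% of all tested genes, with a median of −0.59. In B6 whole against B6 DP thymocytes 0 of 14 passed in edgeR or DESeq2, with 1 at an unadjusted p under 0.05, when edgeR called 10.2% of all tested genes. Between the strains in whole thymocytes 0 of 14 passed in either tool, with 0 at an unadjusted p under 0.05, when edgeR called 4.59% of all tested genes. Mki67, the proliferation antigen, had 3187 and 3061 CPM in BALB whole and 2861 and 3105 CPM in B6 whole thymocytes, against 5485 and 4426 CPM in BALB DP and 3518 and 3226 CPM in B6 DP thymocytes. Birc5, or survivin, had a log2 fold change of 0.92 ± 0.14 for BALB over B6 DP thymocytes (adjusted p = 0.00120, edgeR).

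The count of 13 fell to 7 without B6 DP replicate 1 and to 6 without B6 DP replicate 2, and the count of 11 fell to 7 without either BALB whole library. When only the 4 libraries compared were fitted, both counts were 6. Leaving out the 2 libraries that stood apart gave 12 and 8. In the interaction 0 of 14 passed in edgeR or DESeq2 with all libraries, 13 had an unadjusted p under 0.05, and 11 passed without BALB DP replicate 2. In the same DP libraries Cdkn1a had 8 pooled counts in BALB and 1 in B6, and no difference of Trp53 between the strains passed. These Cdkn1a counts are too few to compare, and the part of p53 and p21 in the cell cycle genes was not tested.

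**Figure D4:**
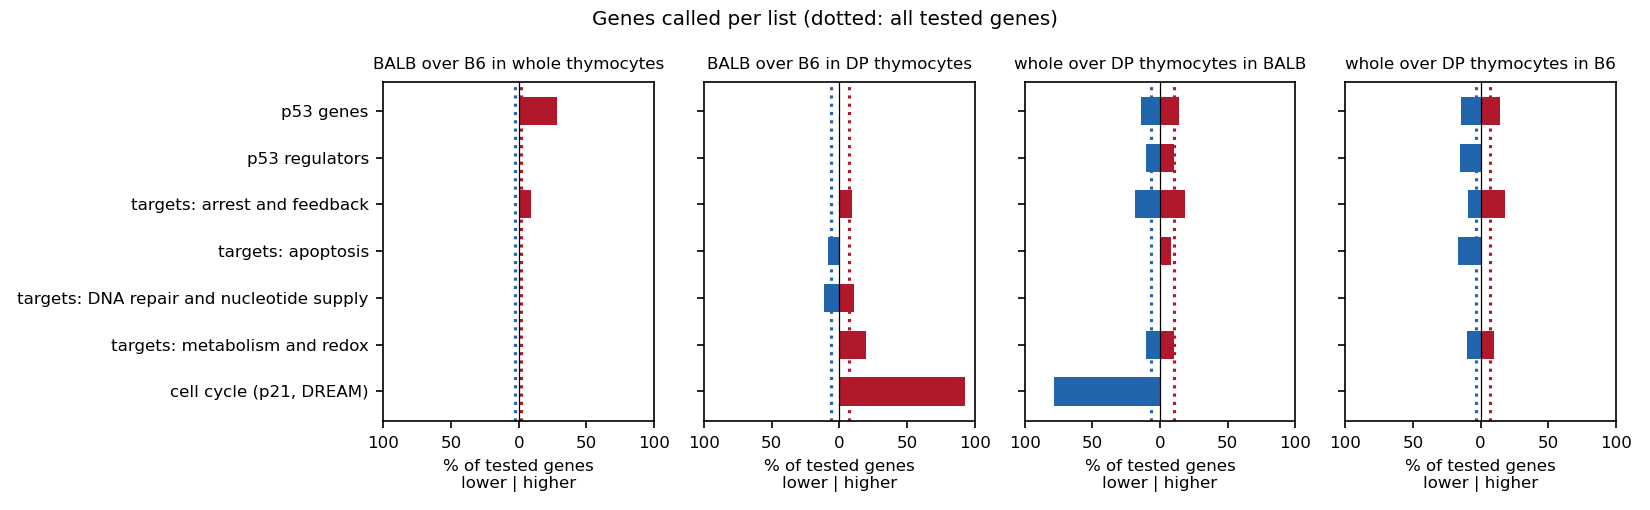
Percent of tested genes of each list called higher (right) or lower (left) in edgeR in each of the 4 simple comparisons, with dotted lines at the percent of all tested genes. The bar of cell cycle genes reaches 92.9% higher in BALB DP over B6 DP thymocytes and 78.6% lower in BALB whole over BALB DP thymocytes, while in the other lists each bar stands for 3 genes or fewer.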

How the data were processed

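Per the labels' protocols, 8 libraries were made with a TruSeq kit (version v2 of the RNA Sample Prep Kit) that does not mark strand. The submitters' processing notes name HISAT2 2.2.0, HTSeq and DESeq2 1.42.1 and the build mm10. The deposited values are raw read counts per gene symbol. The annotation used for counting is not given in the sources used here. Reads outside genes (69.2% to 77.4% per library) were left out of library sizes.

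In edgeR 4.0.16 (R 4.3.3), filterByExpr chose the genes (minimum count 10, minimum total 15), TMM scaled the libraries (factors 0.957 to 1.05), and quasi-likelihood models were fitted with 1 coefficient per group, or with strain and population as additive terms for comparisons over both. P-values were adjusted by Benjamini-Hochberg over all 11409 tested genes, and genes were called under 0.05. The fit was tested on simulated data. CPM use the scaled library sizes, and RPKM the exon length in GENCODE vM21. Errors are SE of fits and SD of 2 libraries. Counts of 0 were set at 3 over the group. Intervals of pooled ratios are exact 95% intervals of counting error.

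The members, the 6 pathway lists, the marker lists and the alternatives were chosen with earlier results of these data known. The rule named all members, up to 3 called genes per direction with the smallest p in each list and comparison, and the 3 genes nearest in pattern to Trp53, Mdm2 and Cdkn1a. Not every pathway gene and comparison that met the rule is printed above. Of 96 list entries all were found, 4 under older symbols, and 66 of 67 markers. Alternatives were DESeq2 size factors, no filter, a stricter one (mean count 50 or more, with 1 CPM in at least 2 libraries), DESeq2 1.42.0's Wald test, a replicate block, only the 4 libraries compared, and leaving out each library. The one without both libraries that stood apart was added after seeing the data.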

Additional observations from a re-analysis of the deposited data

How the results depend on the processing

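No call of the 10 genes changed direction under any of the alternatives. Of 102 recomputed counts of called genes 69 stayed within 1.5 times and 33 moved. The 69 include every recomputed count of 2 comparisons that stayed at 0 throughout, the strains in DP thymocytes and the interaction. Between the strains in whole thymocytes 2 genes were called in the fit described, 0 with the DESeq2 Wald test, and 0 to 2 when 1 library was left out. For whole over DP thymocytes in B6 the count of 2 became 1 with the DESeq2 Wald test, 3 with no filter (Cdkn1a, Trp53 and Trp53inp1), 3 with only the 4 libraries compared (Mdm2, Trp53 and Trp53inp1), 4 without both libraries that stood apart (Cdkn1a, Mdm2, Trp53 and Trp53inp1), and 0 to 3 without 1 library. For whole over DP thymocytes in BALB the count of 2 became 4 with no filter, 1 with the strict filter, 0 with the DESeq2 Wald test, 0 with only the 4 libraries compared, 1 without both libraries that stood apart, and 0 to 4 without 1 library. For BALB over B6 over both populations the count of 1 became 2 without both libraries, and 0 to 2 without 1 library, and for whole over DP over both strains the count of 3 was 3 to 4. In DP thymocytes between strains and in the interaction the count was 0 in every alternative. The cause of these moves was not tested. Among values called in neither setting 25 changed sign, the largest having a log2 fold change of 0.26 in the fit described.

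The labels do not say that replicate numbers pair the libraries. Deviations of equally numbered libraries correlated at −0.038 to 0.057, which cannot decide whether a whole and a DP library shared an animal. With a replicate block the count was 1 in whole thymocytes between strains, 1 for whole over DP thymocytes in BALB, and unchanged in the other comparisons.

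With 2 libraries per group, a gene as low as Cdkn1a, Phlda3 or Eda2r can be described only by its counts, and 1 library decides many calls.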

Other observations

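The genes nearest to Trp53 in pattern were sought among 11409 tested genes, by the root mean square difference of log2 CPM, each gene centred on its own mean over the 8 libraries. They were Wdr75 (0.0654), Xpot (0.0812) and Prpsap2 (0.0853), against a root mean square of 0.261 for Trp53 itself. For Mdm2 they were Tbcel (0.0499), 9930021J03Rik (0.0505) and Brpf3 (0.0505), against 0.189 for Mdm2. For Cdkn1a the nearest were B930041F14Rik (0.361), Nr4a2 (0.377) and St3gal5 (0.398), against 0.888 for Cdkn1a, so at its few counts the likeness was loose.

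Among 50 other p53 targets of the lists, 41 had promoter windows, 54 in all, and 2 held the 20-base consensus with at most 1 mismatch, each fitting 19 of 20 positions. They are given beside those of Cdkn1a and Ccng1, on the gene's strand, with build GRCm38.p6. That of Rps27l is at chr9:66946296-66946315, and that of Gtse1 at chr15:85859945-85859964, which starts at −1 from the transcript start.
Rps27l: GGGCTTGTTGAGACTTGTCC
Gtse1: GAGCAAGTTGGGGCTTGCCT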
